A study of Homo sapiens with 24 samples.

Results

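The 10 genes of the Notch pathway described here were followed through the 3 lines of the series. They are the receptors NOTCH1, NOTCH2 and NOTCH3, the ligands JAG1 and JAG2, the transcriptional repressors HES1, HES4, HEY1 and HEYL, and the DNA-binding protein RBPJ. They were chosen by gene symbol and are 10 of the 14426 genes listed in the 3 tables of counts. All 10 were listed in each table and all 10 passed the filter on low counts in each comparison. The material was Panc-1, a human pancreatic ductal adenocarcinoma (PDAC) line, grown in medium with serum depleted of tetracycline and stably transfected with a Tet-One plasmid, from which doxycycline (Dox) switches on an inserted open reading frame. Tet-One cells carried the empty plasmid, Tet-MIST1 cells the open reading frame of rat MIST1 with a myc tag, and Tet-PTF1a cells that of mouse PTF1a with a myc tag. MIST1 and PTF1a are basic helix-loop-helix factors of pancreatic acinar cells. Control cells received no Dox and Dox cells received 1 µg/ml for 72 h, with 4 libraries in each of the 6 groups and 24 in all. The passage was 32, except for Tet-MIST1, which was used at 33. Each line was an individual clone selected in puromycin, so line and clone cannot be told apart.

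Notch receptors are single-pass membrane proteins that are cut when a ligand of the Jagged or Delta family on a neighbouring cell binds them. The released intracellular domain enters the nucleus and joins RBPJ and a Mastermind coactivator on DNA, and genes of the HES and HEY families are the classic targets. In the embryonic pancreas the pathway holds progenitor cells back from acinar differentiation, and in the adult organ it is known for its return in injury and PDAC. RBPJ has another role there: with PTF1a and an E protein it forms the PTF1 complex of the early pancreas, in which RBPJL takes its place in mature acinar cells. RNA levels, as measured here, report neither cleavage of a receptor nor binding of RBPJ.

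The core sequence that RBPJ reads is found upstream of HEYL, HES1, HES4 and RBPJ. Of these 4, HEYL alone rose strongly with Dox in Tet-PTF1a cells (log2 fold change 3.32). The changes of HES1 (0.12), HES4 (0.09) and RBPJ (0.16) were small and alike. NOTCH1, which rose, holds no such core in the promoter stretch that was searched. For these reasons the stretches upstream of these 5 genes are shown. Each is the 250 bases before the start of transcription of a RefSeq promoter entry (GRCh38.p14), 5′ to 3′ on the strand of the gene. For NOTCH1 that start lies 262 bases from the listed start of the gene. Capitals mark TGGGAA, or its reverse complement. By exact match they lie on hg19 at chr1:40105316-40105565 (HEYL, minus strand), chr3:193853687-193853936 (HES1, plus), chr1:935478-935727 (HES4, minus), chr4:26321118-26321367 (RBPJ, plus, the entry nearest to the start of the gene in the tables) and chr9:139440501-139440750 (NOTCH1, minus).
HEYL: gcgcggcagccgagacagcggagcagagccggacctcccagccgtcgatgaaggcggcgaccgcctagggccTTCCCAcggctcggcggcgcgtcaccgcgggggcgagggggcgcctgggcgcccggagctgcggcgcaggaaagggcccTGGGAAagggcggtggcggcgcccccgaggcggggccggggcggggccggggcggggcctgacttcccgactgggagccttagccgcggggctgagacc
HES1: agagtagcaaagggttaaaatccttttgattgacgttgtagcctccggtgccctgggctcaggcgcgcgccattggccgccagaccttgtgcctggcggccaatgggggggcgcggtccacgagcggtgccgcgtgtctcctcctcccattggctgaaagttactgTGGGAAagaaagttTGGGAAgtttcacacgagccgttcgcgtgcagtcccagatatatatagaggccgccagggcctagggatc
HES4: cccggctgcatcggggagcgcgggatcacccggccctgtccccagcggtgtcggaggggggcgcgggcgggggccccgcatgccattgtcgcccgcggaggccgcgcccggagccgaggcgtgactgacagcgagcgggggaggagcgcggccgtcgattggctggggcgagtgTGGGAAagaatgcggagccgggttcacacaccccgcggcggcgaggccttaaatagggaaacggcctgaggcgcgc
RBPJ: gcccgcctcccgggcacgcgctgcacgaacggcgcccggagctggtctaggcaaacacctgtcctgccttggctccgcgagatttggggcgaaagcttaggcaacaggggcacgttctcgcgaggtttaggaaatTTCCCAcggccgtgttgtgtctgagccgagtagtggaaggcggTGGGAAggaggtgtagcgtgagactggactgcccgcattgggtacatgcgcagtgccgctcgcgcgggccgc
NOTCH1: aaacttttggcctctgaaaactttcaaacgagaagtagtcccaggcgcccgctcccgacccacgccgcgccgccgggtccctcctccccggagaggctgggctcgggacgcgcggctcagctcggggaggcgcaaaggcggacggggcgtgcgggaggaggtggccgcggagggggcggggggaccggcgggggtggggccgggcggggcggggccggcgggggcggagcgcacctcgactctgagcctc
Of the 10 genes, 9 had an entry in the promoter table, RBPJ with 5. HEY1, which also rose in Tet-PTF1a, had none, so no motif was sought for it. Over each whole entry, which runs 50 bases past the start, TGGGAA on either strand was found for HEYL at positions -178 and -99 from the start, for HES1 at -84 and -70, for HES4 at -76 and for RBPJ at -115 and -72. It was found for 4 of the 9 genes (44.4%), against 28.1% of the 27305 genes in the promoter table. The longer TGGGAAA, known as the TC box of the PTF1 site, contains the core and was found for the same 4 genes, against 9.58% of all genes. The E box CANNTG, the other part of a PTF1 site, was found for RBPJ and JAG2 only (22.2% of the 9 genes, against 73.1% of all genes). CACGTG, the E box that HES and HEY proteins can read, was found for none of the 9 and for 8.78% of all genes, and the N box CACNAG was found for 5 of the 9 (55.6%) and for 42.9% of all genes. These matches describe letters in a window of this length and are not binding sites.

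Depth ran from 17210989 to 43018494 counted reads per library. Both ends lay in Tet-PTF1a, whose replicates were the most alike, with a common coefficient of biological variation of 2.80%, while Tet-MIST1 had 6.58% and Tet-One 14.4%. Without Dox replicate 1 of the same line, Tet-MIST1 had 4.11% and Tet-One 4.79%. The epithelial and ductal markers KRT7, KRT8, KRT18, KRT19, EPCAM and SOX9 were listed in all lines. All 6 were called in Tet-PTF1a, in both directions. KRT8 (log2 fold change -1.30), KRT18 (-1.10), KRT19 (-1.07) and EPCAM (-0.22) fell, KRT8 from 1820 ± 48.3 to 742 ± 11.4 CPM. KRT7 rose from 1.44 ± 0.348 to 4.52 ± 0.567 CPM (1.64), and SOX9, itself a gene of the pathway list, from 252 ± 9.46 to 310 ± 7.15 CPM (0.30). Of the 5 acinar markers PRSS1 was listed, in Tet-PTF1a alone, with 1 to 4 reads in Control and 49 to 114 in Dox libraries. Of the 7 fibroblast and endothelial markers COL1A1 alone was listed, and of the 3 leukocyte markers CD68 alone. Both fell in Tet-PTF1a, COL1A1 by 1.25 and CD68 by 0.97 on the log2 scale. In Tet-MIST1 SOX9 (log2 fold change -0.18) and CD68 (-0.27) were called lower, and the other markers listed there were not called. The part of these shifts in the Notch results was not tested, and in bulk RNA fewer cells with a transcript cannot be told apart from less of it in each cell.

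Dox replicate 1 of Tet-One and, less so, Dox replicate 1 of Tet-MIST1 stood apart from the other libraries of their groups. The SD of the log2 difference of Tet-One Dox replicate 1 from the other 3 Dox libraries was 0.577 over 11882 genes, and that of Tet-MIST1 Dox replicate 1 was 0.232 over 12070 genes, against 0.0831 to 0.227 in the other 22 libraries. Of these 22, Tet-One Dox replicates 2 to 4 had 0.201 to 0.227, each set against a mean that includes replicate 1. Outside that group the highest was 0.167, in Tet-MIST1 Dox replicate 2. In Tet-One Dox replicate 1 the difference ran with the summed length of a gene's exons (Spearman rho -0.738 across genes, which are not independent): its median was -0.777 for 880 genes of 8 kb or more and 0.740 for 1412 genes under 1.5 kb. In Tet-MIST1 Dox replicate 1 the medians were -0.291 for 885 and 0.247 for 1410 genes of these lengths. The tests below include both libraries, and values without them are given where a call changed.

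The 3 lines were first compared without Dox, which gives the level from which each response started. Levels between genes are compared per kilobase of exon, as RPKM (reads divided by exon length and by depth, scaled over the 24 libraries by the trimmed mean of M values, TMM). NOTCH2 was the most abundant of the 10 in Control Tet-PTF1a cells at 29.4 ± 0.973 RPKM (SD, n = 4, as for every mean below) and in Control Tet-One cells at 24.1 ± 0.929 RPKM, and HES1 stood highest in Control Tet-MIST1 cells at 15.1 ± 0.611 RPKM. HEY1 and HEYL, close relatives of the HES genes, were the 2 lowest in each line without Dox, between 1.07 and 2.04 RPKM. In Control Tet-PTF1a cells the order ran from NOTCH2 through HES1 (24.3 ± 0.885 RPKM), HES4 (21.1 ± 1.52), JAG2 (12.6 ± 0.245), RBPJ (10.8 ± 0.259), JAG1 (6.21 ± 0.147), NOTCH3 (3.89 ± 0.237), NOTCH1 (3.80 ± 0.179) and HEYL (2.04 ± 0.0630) to HEY1 (1.72 ± 0.122). The libraries of HES1 and HES4 overlapped, as did those of NOTCH3 and NOTCH1, and the other neighbours in this order did not overlap.

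Between the Control libraries of the lines most genes differed, and most of the 10 did as well. The test was the quasi-likelihood test of edgeR on the counts, with Benjamini-Hochberg adjustment over all genes tested, and a gene was called at a false discovery rate (FDR) under 0.05. Of the 10 genes, 9 were called between Control Tet-MIST1 and Control Tet-One cells, where 80.2% of all genes were called, 39.5% higher and 40.7% lower: RBPJ was higher in Tet-MIST1 (log2 difference 0.27, SE 0.0404) and 8 were lower. The ligand JAG2 showed the widest gap, with Control values of 35.2, 30.0, 32.9 and 32.1 CPM in Tet-MIST1 and 80.8, 110, 95.8 and 113 CPM in Tet-One (CPM, the depth-scaled counts as deposited). That is a log2 difference of -1.62 (SE 0.105). NOTCH3 followed at -1.10 (SE 0.0898), HEY1 at -0.88 (SE 0.0983) and NOTCH2 at -0.86 (SE 0.0681). Between Control Tet-PTF1a and Control Tet-One cells 9 of the 10 were called as well, where 79.7% of all genes were called (39.5% higher and 40.1% lower). Of these 9, 6 were higher and 3 lower, all by less than 1 on the log2 scale. HES4 differed most, with a log2 difference of 0.77 (SE 0.103), and NOTCH3 was lower by 0.52 (log2 difference -0.52, SE 0.0794). HEYL was the exception, at 8.64 ± 0.238 CPM in Control Tet-PTF1a and 7.97 ± 0.582 CPM in Control Tet-One cells (log2 difference 0.04, SE 0.0689, FDR 0.571). JAG1 was the gene not called in Tet-MIST1 (0.09, FDR 0.120). Tet-MIST1 and Tet-PTF1a lay on opposite sides of Tet-One for NOTCH1, HES1 and HES4 before any Dox was given, and for NOTCH2 also, although the sign for NOTCH2 in Tet-PTF1a turned, with those of JAG1 and RBPJ, once each library was freed of its trends with GC content and exon length (-0.11, -0.12 and -0.21).

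**Figure D1:**
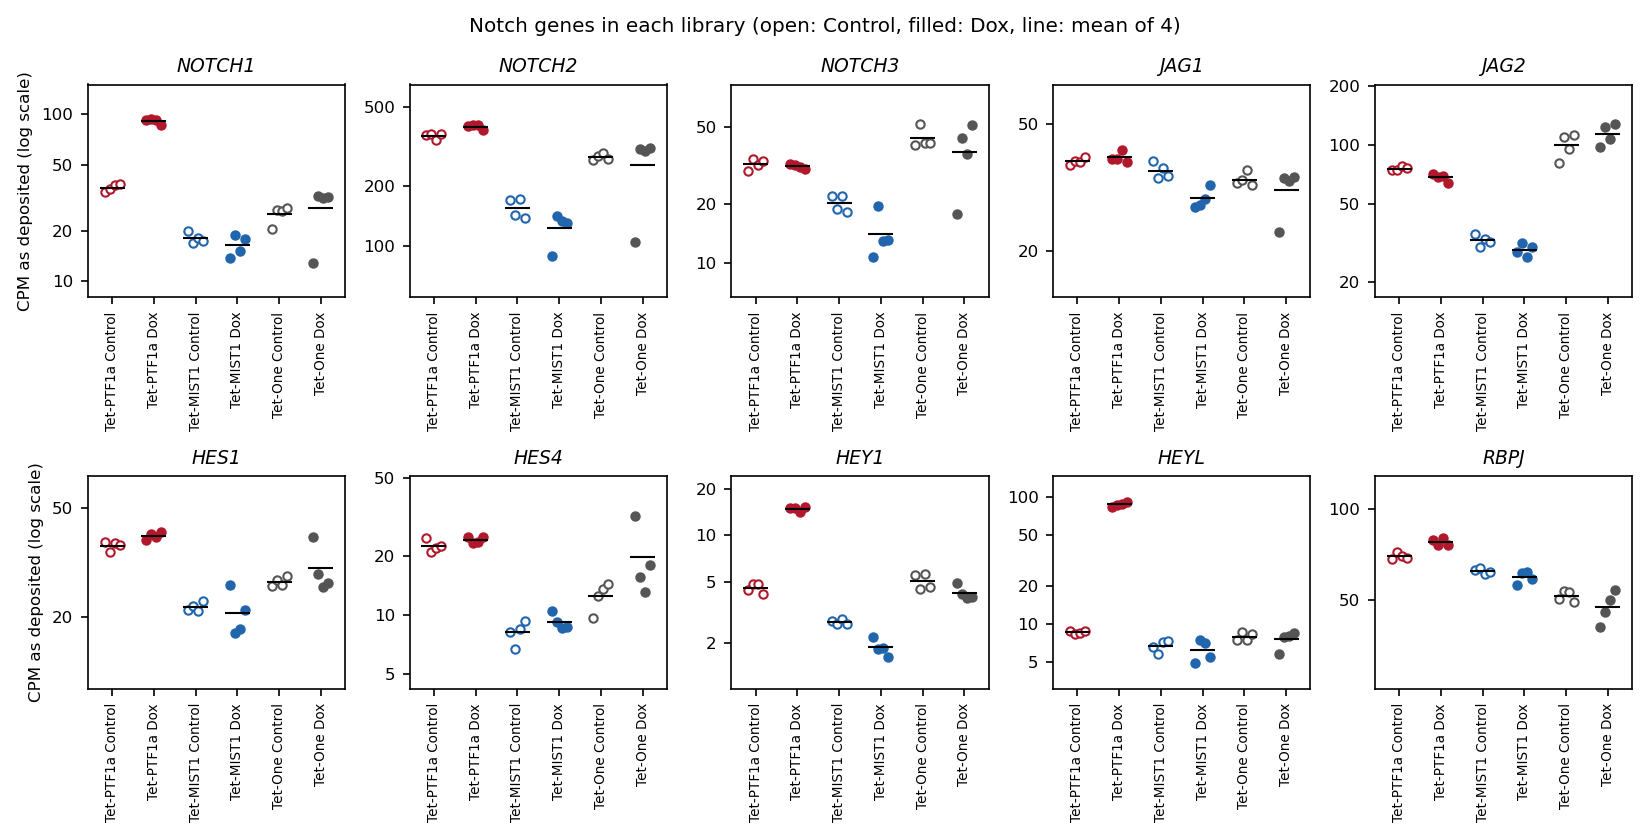
Deposited CPM (vertical axis, log scale) of each of the 10 Notch genes in the 24 libraries, by line and treatment; open points are Control libraries, filled points Dox libraries and lines the mean of 4. HEYL, HEY1 and NOTCH1 stand clear of all other libraries in Tet-PTF1a Dox, and the lowest Tet-One Dox point of the 3 receptors and JAG1 is replicate 1.

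Dox in Tet-PTF1a cells raised 6 of the 10 genes and lowered 1, in a line where 48.2% of all 14053 genes tested were called, 23.8% higher and 24.4% lower by the same test. HEYL rose 10.0-fold, HEY1 3.29-fold and NOTCH1 2.52-fold, and these 3 changes held under each alternative setting that was run. RBPJ, NOTCH2 and HES1 rose by 1.09-fold to 1.12-fold, and JAG2 fell to 0.898 times its Control level. None of these small changes was called with all 24 libraries in one fit. The median log2 fold change of the 10 was 0.14, against 0.001 over all genes. The human PTF1A gene itself had 0 to 2 reads in the Control libraries and 53 to 168 in the Dox libraries of this line. The induced sequence is from mouse, and whether these reads come from it or from the human gene was not tested.

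HEYL encodes a hairy-related repressor that is a direct target of Notch in other cells. It spans chr1:40089103-40105348 on the minus strand of hg19. Its Control libraries in Tet-PTF1a held 8.79, 8.40, 8.49 and 8.90 CPM and its Dox libraries 83.7, 87.0, 88.5 and 91.2 CPM. All Dox libraries lay far above all Control libraries, and the spread within each group was small. The log2 fold change was 3.32 (SE 0.0449, FDR 5.98e-47), which put HEYL at rank 24 of the 14053 genes by absolute change. Neither other line showed a change of that kind: HEYL was at 6.74 ± 0.722 CPM in Control and 6.25 ± 1.21 CPM in Dox cells of Tet-MIST1 (log2 fold change -0.10, SE 0.128, FDR 0.609), and at 7.97 ± 0.582 and 7.58 ± 1.18 CPM in Tet-One (log2 fold change -0.07, SE 0.123, FDR 0.897). The test of the difference between the responses gave 3.40 on the log2 scale for Tet-PTF1a against Tet-One (SE 0.130, FDR 1.17e-10) and 3.43 against Tet-MIST1 (SE 0.131, FDR 3.36e-14).

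HEY1, the relative of HEYL best known from blood vessels and heart, lies at chr8:80676245-80680098 on the minus strand. In Tet-PTF1a it read 4.43, 4.82, 4.81 and 4.12 CPM in Control and 15.0, 15.0, 14.1 and 15.2 CPM in Dox libraries, on counts of 86 to 188 and 261 to 498 reads. The groups did not overlap. The log2 fold change was 1.72 (SE 0.0762, FDR 3.04e-25). In Tet-MIST1 the same gene moved the other way, from 2.76, 2.65, 2.87 and 2.64 CPM in Control to 2.19, 1.83, 1.86 and 1.61 CPM in Dox libraries, and again the groups did not overlap. There HEY1 fell by 0.51 on the log2 scale (SE 0.108, FDR 0.00645). In Tet-One it went from 5.04 ± 0.598 to 4.24 ± 0.457 CPM and was not called (log2 fold change -0.24, SE 0.118, FDR 0.897). The response in Tet-MIST1 did not differ from that in Tet-One by the test of the difference (-0.28, SE 0.156, FDR 0.544), while the response in Tet-PTF1a differed from both (1.95 against Tet-One, FDR 5.79e-08, and 2.24 against Tet-MIST1, FDR 8.76e-12).

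HES1 and HES4, whose upstream stretches hold the RBPJ core close to the start, hardly moved. HES1, the general readout of Notch activity in many tissues, lies at chr3:193853931-193856401 on the plus strand. It went from 37.5, 34.6, 37.2 and 36.7 CPM to 38.4, 40.3, 39.2 and 40.9 CPM in Tet-PTF1a. The lowest Dox library lay just above the highest Control library, and the log2 fold change was 0.12 (SE 0.0398, FDR 0.0107), a call that was lost without Dox replicate 4. HES1 was not called in Tet-MIST1 (log2 fold change -0.06, SE 0.107, FDR 0.721) or Tet-One (0.16, SE 0.132, FDR 0.897), and its response in Tet-PTF1a was not distinguished from that in Tet-One (log2 difference -0.04, SE 0.141, FDR 0.882). HES4, a HES1-like repressor that is present in human and absent from the mouse genome, lies at chr1:934342-935552 on the minus strand. In Tet-PTF1a it read 22.6 ± 1.56 CPM in Control and 24.3 ± 0.854 CPM in Dox libraries, which overlapped (log2 fold change 0.09, SE 0.0509, FDR 0.139). Without Control replicate 1 it was called, at 0.14. HES4 had the largest value of the 10 in Tet-One, a log2 fold change of 0.66 (SE 0.269, FDR 0.897), with 9.72, 12.6, 13.6 and 14.4 CPM in Control and 32.1, 15.6, 13.2 and 18.1 CPM in Dox libraries, and the groups overlapped. It was the only one of the 10 with an unadjusted p under 0.05 there (0.0377). Without Dox replicate 1 the value for HES4 was 0.31, below the 0.34 of NOTCH1 in the same fit.

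**Figure D2:**
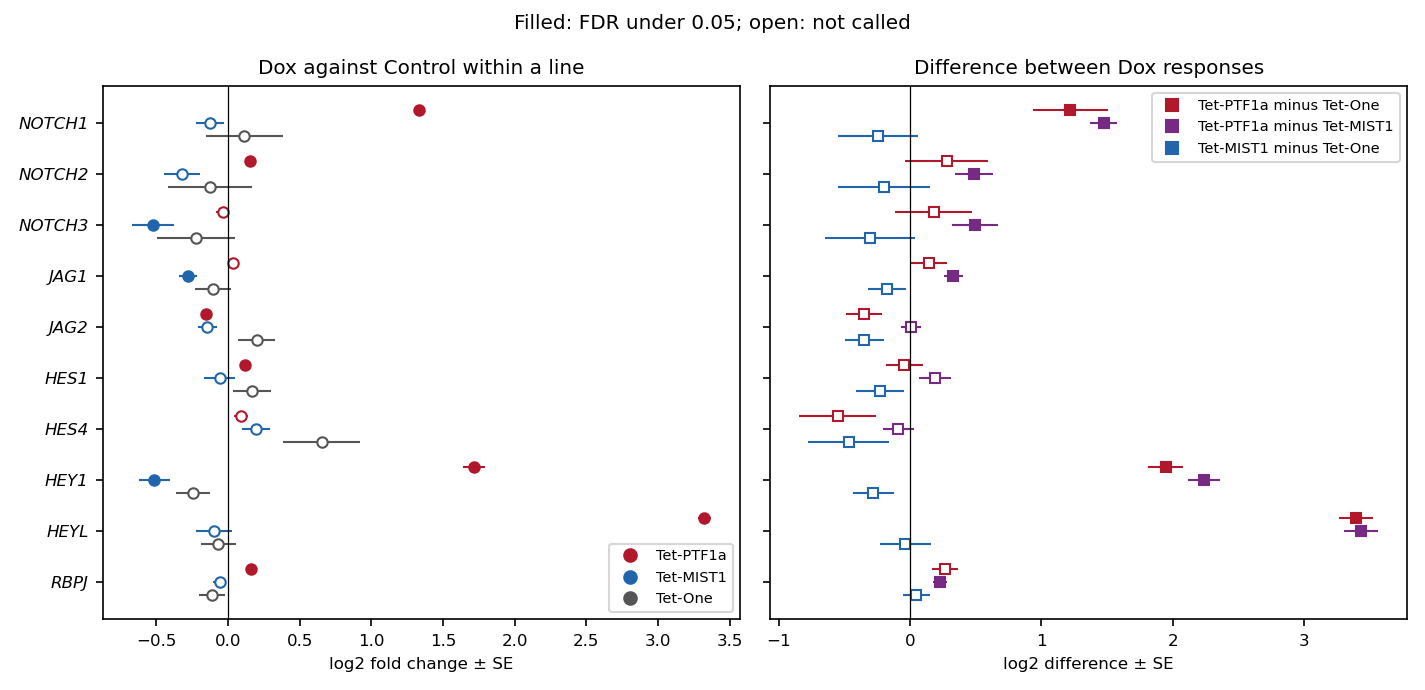
Log2 fold change with its SE for Dox against Control in each line (left, circles) and log2 difference between the responses of 2 lines with its SE (right, squares), for the 10 Notch genes; filled symbols have an FDR under 0.05. HEYL, HEY1 and NOTCH1 reach 3.32, 1.72 and 1.33 in Tet-PTF1a, and every other value on the left lies between -0.52 and 0.66.

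Among the receptors NOTCH1 rose in Tet-PTF1a, NOTCH2 rose slightly and NOTCH3 was not called. NOTCH1, the receptor often mutated in T-cell leukaemia, lies at chr9:139388896-139440238 on the minus strand. Its Control libraries held 34.1, 35.7, 37.5 and 38.1 CPM and its Dox libraries 92.9, 94.5, 93.2 and 86.7 CPM. With no overlap, the log2 fold change was 1.33 (SE 0.0365, FDR 4.49e-33). In Tet-MIST1 NOTCH1 stayed near its start, with 19.9, 16.8, 18.1 and 17.4 CPM in Control and 13.8, 19.0, 15.1 and 17.9 CPM in Dox libraries, and was not called (log2 fold change -0.13, SE 0.0962, FDR 0.364). In Tet-One it read 20.5, 26.6, 26.3 and 27.6 CPM in Control and 12.8, 32.6, 31.5 and 32.1 CPM in Dox libraries. Replicate 1 lay below all Control libraries there and the other 3 above them, so the log2 fold change of 0.11 carried an SE of 0.267 (FDR 0.909). The response in Tet-PTF1a still differed from that in Tet-One by 1.22 (SE 0.286, FDR 0.00906) and from that in Tet-MIST1 by 1.47 (SE 0.105, FDR 6.71e-10). Without Tet-One Dox replicate 1 the change of NOTCH1 in Tet-One was 0.34, and the difference of Tet-PTF1a from it was 0.99 and still called.

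NOTCH2, the receptor with the most reads, lies at chr1:120454176-120612317 on the minus strand. Its first exons have a near-identical copy in NOTCH2NL, which is listed as a gene of its own, so the split of reads between them is uncertain. In Tet-PTF1a it went from 358, 364, 342 and 365 CPM to 398, 403, 404 and 383 CPM. Every Dox library was above every Control library, by a log2 fold change of 0.15 (SE 0.0229, FDR 2.18e-07). In Tet-MIST1 the change was -0.32 (SE 0.1254, FDR 0.0858), from 169, 143, 171 and 138 CPM to 88.1, 141, 133 and 130 CPM, with overlap. Leaving out 1 library at a time gave NOTCH2 values from -0.39, called without Dox replicate 2, to -0.19 without Dox replicate 1. The responses of NOTCH2 in Tet-PTF1a and Tet-MIST1 differed by 0.49 (SE 0.144, FDR 0.0133). In Tet-One the change was -0.13 (SE 0.295, FDR 0.908), and 0.13 without Dox replicate 1, and the Tet-PTF1a response was not distinguished from it (0.28, SE 0.316, FDR 0.643). NOTCH3, known for its part in vascular smooth muscle, lies at chr19:15270444-15311792 on the minus strand and was at 32.2 ± 2.01 CPM in Control and 31.3 ± 0.878 CPM in Dox cells of Tet-PTF1a (log2 fold change -0.04, SE 0.0455, FDR 0.520). In Tet-MIST1 it went from 22.2, 19.0, 22.1 and 18.3 CPM to 10.7, 19.5, 13.0 and 13.2 CPM and was called lower (log2 fold change -0.52, SE 0.147, FDR 0.0283), although Dox replicate 2 lay within the Control range. That call was kept in 3 of the 8 fits that left out 1 library: it was lost without Control replicate 1 or 3 and without Dox replicate 1, 3 or 4. Over the 8 fits the value ran from -0.72 to -0.41.

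The 2 ligands moved little in any line. JAG1, the Notch ligand of the bile duct and of ductal cells, lies at chr20:10618332-10654694 on the minus strand. It was at 38.2 ± 0.899 CPM in Control and 39.3 ± 1.56 CPM in Dox cells of Tet-PTF1a and was not called (log2 fold change 0.04, SE 0.0399, FDR 0.476). In Tet-MIST1 it fell from 38.4, 34.0, 36.3 and 34.3 CPM to 27.46, 27.997, 29.21 and 32.34 CPM, with no overlap (log2 fold change -0.28, SE 0.0637, FDR 0.0109). With the trends of exon length and GC content removed this became -0.16 (FDR 0.0544). JAG2, at chr14:105607318-105635161 on the minus strand, was the 1 gene of the 10 that fell in Tet-PTF1a, from 74.1, 74.7, 77.9 and 76.2 CPM to 71.1, 68.5, 69.4 and 64.1 CPM. The groups lay close together without overlap, and the log2 fold change was -0.15 (SE 0.0328, FDR 9.50e-05). JAG2 gave the same value of -0.15 in Tet-MIST1 (SE 0.0660), where it was not called (FDR 0.132), and 0.20 in Tet-One (SE 0.127, FDR 0.897). The Tet-PTF1a and Tet-MIST1 responses of JAG2 differed by 0.005 (SE 0.0745, FDR 0.961).

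RBPJ, at chr4:26321332-26436752 on the plus strand, rose by 0.16 in Tet-PTF1a (SE 0.0314, FDR 3.39e-05), from 68.2, 72.4, 69.8 and 68.9 CPM to 78.8, 76.2, 80.4 and 76.0 CPM. Its lowest Dox library lay above its highest Control library. It was at 62.5 ± 1.23 CPM in Control and 59.6 ± 2.58 CPM in Dox cells of Tet-MIST1 (log2 fold change -0.06, SE 0.0449, FDR 0.366), and at 51.7 ± 2.25 and 47.7 ± 5.66 CPM in Tet-One (-0.11, SE 0.0933, FDR 0.897). The Tet-PTF1a response differed from that of Tet-MIST1 by 0.23 (SE 0.0518, FDR 0.00166) and from that of Tet-One by 0.27 (SE 0.0979), which was not called (FDR 0.0915). Of the E proteins that can complete the PTF1 complex, TCF3 and TCF12 were abundant in Tet-PTF1a and not called, TCF3 at 134 ± 2.87 CPM in Control and 129 ± 3.75 CPM in Dox cells (log2 fold change -0.05, SE 0.0271, FDR 0.102) and TCF12 at 117 ± 3.60 and 116 ± 1.85 CPM (-0.02, SE 0.0279, FDR 0.486). TCF4 was far lower and fell, from 12.4 ± 0.686 to 8.48 ± 0.655 CPM (log2 fold change -0.54, SE 0.0709, FDR 6.48e-09). In Tet-MIST1 TCF12 fell by 0.21 (SE 0.0650, FDR 0.0427), TCF4 changed by -0.43 (SE 0.165) and was not called (FDR 0.0741), and TCF3 was at 115 ± 6.65 and 118 ± 5.06 CPM. RBPJL was listed in none of the 3 tables, so no value is given for it.

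**Figure D3:**
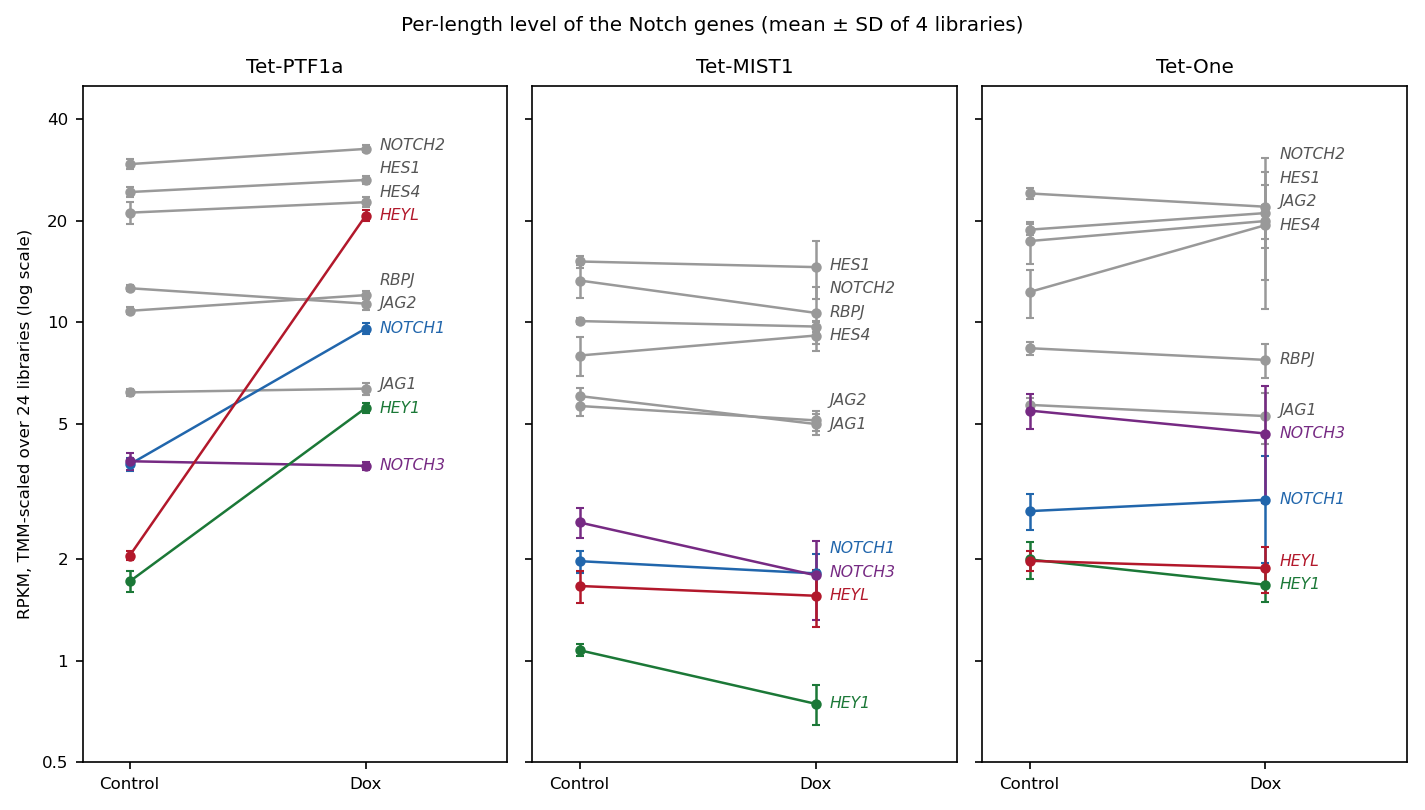
Mean RPKM with SD of 4 libraries (vertical axis, log scale) of the 10 Notch genes in Control and Dox cells of each line; NOTCH1, NOTCH3, HEY1 and HEYL are coloured and the others grey. In Tet-PTF1a HEYL moves from 2.04 to 20.7 RPKM and from rank 9 to rank 4, while no other line shows such a crossing.

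With Dox the order of the 10 genes in Tet-PTF1a changed. HEYL moved from rank 9 to rank 4, at 20.7 ± 0.759 RPKM, just under HES4 at 22.7 ± 0.775 RPKM and with no overlap between their libraries. NOTCH1 reached 9.59 ± 0.364 RPKM and so stood above NOTCH3 at 3.77 ± 0.103 RPKM, with which it had overlapped without Dox. HEY1 reached 5.58 ± 0.181 RPKM, below JAG1 at 6.37 ± 0.253 RPKM. RBPJ (12.0 ± 0.330 RPKM) and JAG2 (11.4 ± 0.491 RPKM) exchanged places and their libraries overlapped. Across the 24 libraries and 13506 genes listed in all tables, the genes whose log2 CPM ran most like that of HEYL were BMP8A (Pearson r 0.982), SULF2 (0.981) and SEMA3G (0.977). For NOTCH1 they were FMN1 (0.977), TBC1D4 (0.974) and KIAA0922 (0.971), and for HEY1 SYTL2 (0.976), TWISTNB (0.962) and TMEM133 (0.951). These values describe libraries that fall into 6 groups, and any gene that stood apart in the Tet-PTF1a Dox group would score high.

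Dox in Tet-MIST1 cells lowered 3 of the 10 genes, HEY1, NOTCH3 and JAG1, and raised none, in a line where 20.6% of 13623 genes were called, 11.9% higher and 8.77% lower. The median log2 fold change of the 10 was -0.14, against -0.004 over all genes. HEY1 and JAG1 were the 2 genes whose Control and Dox libraries did not overlap in this line, where 26.7% of all genes did not overlap, 12.5% with Dox above Control and 14.2% with Dox below. In Tet-PTF1a, 6 genes had all Dox libraries above all Control libraries (20.8% of all genes) and 1 had them below (21.4%), so that 7 of 10 did not overlap against 42.3% of all genes, and these were the 7 called genes. In Tet-One none of the 10 separated in this way, against 2.49% of all genes, 1.3% with Dox above Control and 1.18% with Dox below. The human MIST1 gene, BHLHA15, was not listed in the Tet-MIST1 table, so no check on the induced rat sequence was made.

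In Tet-One cells, where Dox meets no insert, 0 of the 10 genes were called, as were 0 of 13428 genes in all (0%). The lowest FDR was 0.897 by edgeR. At an unadjusted p under 0.05 stood 1 of the 10, HES4, and 401 of all genes, and DESeq2 called 0 as well.

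The Notch genes lie at both ends of the scale of exon length along which 2 Dox libraries stood apart. NOTCH2 (11825 bases of exon), NOTCH1 (9295) and NOTCH3 (8071) stood in Tet-One Dox replicate 1 at 0.343, 0.400 and 0.411 times the mean of the other 3 Dox libraries. HES1 (1461 bases) and HES4 (1040 bases) stood at 1.45 and 2.06 times it. In Tet-MIST1 Dox replicate 1 the same 3 receptors were at 0.654, 0.795 and 0.702 times the mean of the others, and HES1 and HES4 at 1.38 and 1.19 times. Without Tet-One Dox replicate 1, the count of the 10 called in the test of Tet-PTF1a against Tet-One went from 3 to 5, with RBPJ higher and JAG2 lower in addition, while the share of all genes called went from 12.9% to 30.7%. Without that library 0 of the 10 were called in Tet-One itself by edgeR, where 1 of 13407 genes was. Without Tet-MIST1 Dox replicate 1, NOTCH3 was no longer called in Tet-MIST1 and HES1 was called lower, at -0.19. In the test of Tet-PTF1a against Tet-MIST1 without that library, NOTCH3 was not called and HES1 was called higher, at 0.33. Over all 13506 genes 5511 were then called, against 4916 with it. What set these libraries apart was not tested.

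**Figure D4:**
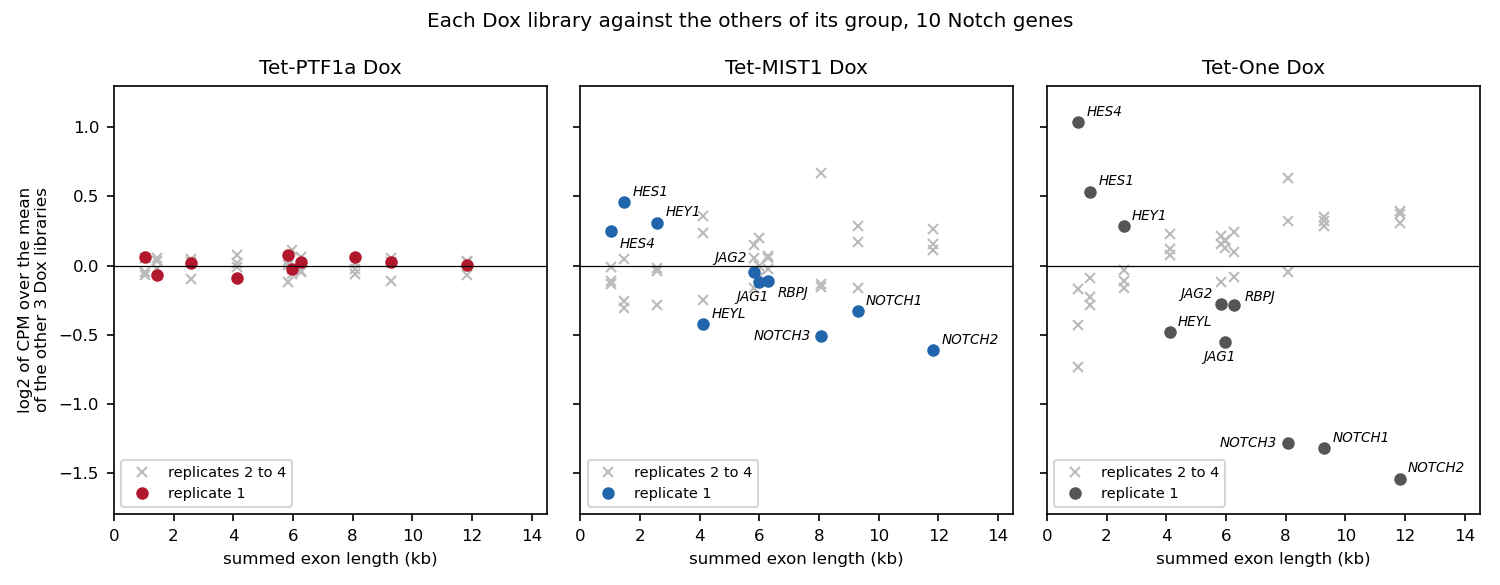
Log2 of the CPM of each Dox library over the mean of the other 3 Dox libraries of its group (vertical axis), against summed exon length in kilobases (horizontal axis), for the 10 Notch genes; filled points are replicate 1 and crosses replicates 2 to 4. In Tet-One the filled points run from 1.04 for HES4, the shortest gene, to -1.54 for NOTCH2, the longest.

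The tests of the difference between lines separate the PTF1a response from the others for part of the 10. Against Tet-One, 3 of the 10 were called and all 3 were higher (HEYL, HEY1 and NOTCH1), where 12.9% of 13506 genes were called, 5.52% higher and 7.34% lower. Against Tet-MIST1, 7 were called and all 7 were higher, where 36.4% of genes were called, 17.8% higher and 18.6% lower: to the same 3 came NOTCH3 (0.49, SE 0.172, FDR 0.0320), NOTCH2 (0.49), JAG1 (0.33, SE 0.0743, FDR 0.00148) and RBPJ (0.23). The call for NOTCH3 was kept in 7 of the 16 fits without 1 library. Between Tet-MIST1 and Tet-One 0 of the 10 were called by edgeR, where 1.66% of 13879 genes were, 1.48% higher and 0.187% lower. JAG2 had an unadjusted p of 0.0315 there, as the only 1 of the 10 under 0.05, and DESeq2 called 0 too. Without Tet-One Dox replicate 1 this count was 3, with NOTCH1, JAG1 and JAG2 lower, where 13.9% of all genes were called. Each pair of these 3 tests shares the libraries of 1 line.

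A list of 62 further genes of the pathway shows how the rest of it moved. In Tet-PTF1a 57 of them were tested, and 26 rose and 12 fell, with a median log2 fold change of 0.10, where 23.8% of all genes rose and 24.4% fell. By role, the other receptors and ligands gave 3 higher and 1 lower of 5 tested, the other HES and HEY genes 2 higher and 1 lower of 3, other targets 3 higher and 1 lower of 5, coactivators 2 higher of 7, corepressors 5 higher and 5 lower of 13, gamma-secretase and sheddases 5 higher and 1 lower of 8, glycosylation enzymes 2 higher of 4, and trafficking and turnover genes 4 higher and 3 lower of 12. Of the list, 4 genes rose by more than 1 on the log2 scale. DLL1, a Delta-family ligand, went from 3.18, 4.54, 3.03 and 3.67 CPM to 8.10, 8.58, 8.91 and 7.52 CPM (log2 fold change 1.1995, SE 0.09997, FDR 7.06e-15). LFNG, the Fringe enzyme that adds sugar to Notch receptors and shifts their choice of ligand, went from 15.9, 17.3, 17.1 and 17.7 CPM to 35.3, 35.4, 33.0 and 35.8 CPM (1.04, SE 0.0486, FDR 3.09e-24). HES7, the repressor of the somite clock, went from 2.10 ± 0.147 to 4.38 ± 0.599 CPM (1.05, SE 0.126, FDR 3.60e-10), and DLL4, the Delta ligand of blood vessels, from 0.819 ± 0.0905 to 1.71 ± 0.287 CPM on 14 to 60 reads per library (1.02, SE 0.196, FDR 6.86e-06). In none of these did a Control library reach a Dox library. NRARP, a target of Notch that limits its activity, rose by 0.79 (SE 0.0437, FDR 2.78e-21), from 25.5 ± 0.814 to 43.7 ± 2.35 CPM, and TLE2, a Groucho-family corepressor that HES proteins recruit, fell by 0.89 (SE 0.0812, FDR 1.82e-13), from 10.54 ± 0.516 to 5.62 ± 0.594 CPM.

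**Figure D5:**
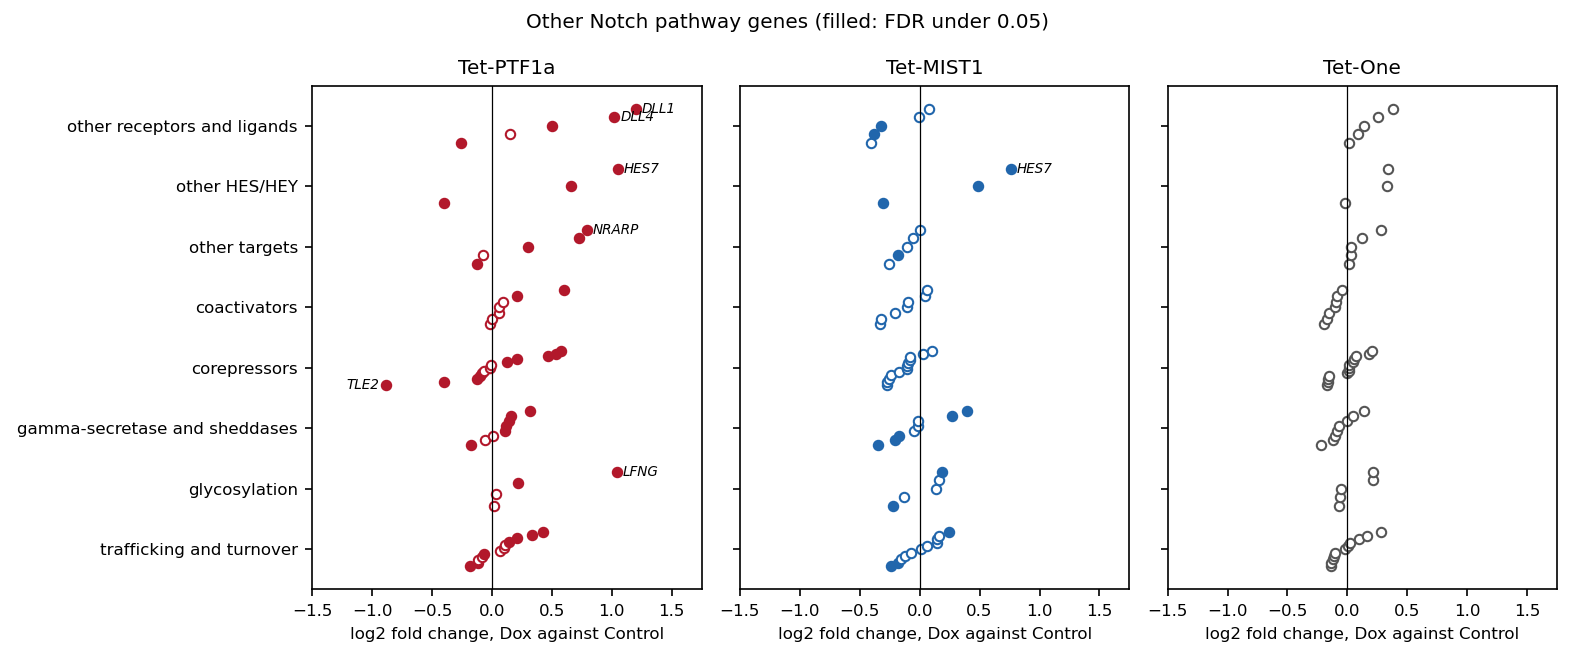
Log2 fold change with Dox (horizontal axis) of the other Notch pathway genes by role (vertical axis) in each line; filled points have an FDR under 0.05, and the names are those of the genes described in the text with a change of at least 0.5. Filled points spread to both sides in Tet-PTF1a (26 higher and 12 lower) and Tet-MIST1 (6 higher and 10 lower), and Tet-One has none.

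In Tet-MIST1 56 genes of this pathway list were tested, 6 rose and 10 fell, and the median was -0.10, where 11.9% of all genes rose and 8.77% fell. Only HES7 was called with a change of at least 0.5: its Control libraries held 2.31, 2.05, 2.36 and 2.31 CPM and its Dox libraries 4.78, 3.41, 3.48 and 3.60 CPM (log2 fold change 0.76, FDR 0.00162). HES7 was called in Tet-PTF1a and Tet-MIST1, and the test did not distinguish these responses (log2 difference 0.31, SE 0.181, FDR 0.183). In Tet-One HES7 went from 3.41 ± 0.502 to 4.30 ± 0.843 CPM (log2 fold change 0.34, SE 0.164, FDR 0.897), and the Tet-MIST1 response was not distinguished from that (0.41, SE 0.212, FDR 0.488). DLL1 moved in opposite directions, falling by 0.38 in Tet-MIST1 (SE 0.117, FDR 0.0352), and the difference between the lines was 1.59 (SE 0.166, FDR 1.22e-07). LFNG was called in both lines, at 0.18 in Tet-MIST1 (SE 0.0549, FDR 0.0346), and differed between them by 0.87 (SE 0.0738, FDR 8.00e-09). The value for LFNG in Tet-One was 0.22 (SE 0.0934, FDR 0.897), and the difference of Tet-MIST1 from Tet-One was -0.04 (SE 0.105, FDR 0.969). In Tet-One 57 of the list were tested, 0 were called by edgeR and by DESeq2, and their median was 0.008.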

How the data were processed

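RNA from 24 cultures was sequenced as polyA-selected paired-end libraries on an Illumina HiSeq instrument. Per the labels and the study's methods the authors aligned the reads to hg19 with TopHat, and the submitters' processing notes also name HTSeq, DESeq and edgeR. Versions, the annotation and the use of strand are not given in the sources used here. The deposited tables, 1 per line, hold the authors' read counts per gene and a CPM signal scaled by the authors. They also hold the authors' own fold changes and p-values, which were not used. Date-like strings stood in place of 20 gene symbols per line, so name and start together identified a gene.

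The counts were tested with edgeR 4.0.16 (R 4.3.3): genes above 0.5 CPM in at least 4 libraries, TMM scaling, a robust quasi-likelihood fit, a prior count of 2 and Benjamini-Hochberg adjustment over all genes tested. Dox and Control were compared line by line, the responses were compared by interaction terms, and Control libraries were compared between lines, 8 comparisons in all. Labels call the libraries replicates and the study calls them biological. Each line is 1 clone, so p-values measure the spread between cultures of that clone. CPM values are as deposited, and RPKM was computed from the counts and summed exon length. Depth was 17210989 to 43018494 counts per library. The statistics were tested on simulated data. Alternatives were DESeq2 1.42.0, the likelihood ratio test, other scalings, filters and prior counts, a replicate block, all libraries in one fit, and leaving out each library. Removal of trends with exon length and GC content (natural splines, 4 degrees of freedom) was chosen after seeing the data.

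The genes and lists were chosen with earlier results of these data known. Named pathway genes were those called with a log2 change of 0.5 or more in either direction, the 6 largest in Tet-PTF1a and all in Tet-MIST1. DLL1 and LFNG in Tet-MIST1 were added after their values were seen.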

Additional observations from a re-analysis of the deposited data

Results flagged for a closer look

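Of the 60 groups of 4 libraries (10 genes in 6 groups), 5 held a library far from the other 3 by Dixon's test, and chance gives about 1 in 20 groups. Dox replicate 1 of Tet-One was the library in 3 of them, all low: NOTCH1 at 12.83 CPM, NOTCH2 at 104.6 CPM and JAG1 at 22.99 CPM. Control replicate 2 of Tet-One was high for NOTCH3 at 51.41 CPM, and Dox replicate 3 of Tet-PTF1a was low for HEY1 at 14.11 CPM. NOTCH1 and NOTCH2 are among the longest of the 10 transcripts, and the part that length played was not tested.

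The response to Dox differed between Tet-PTF1a and Tet-One, by the test of the difference on the log2 scale, for HEYL (3.395), HEY1 (1.946) and NOTCH1 (1.221), and in the pathway list for DLL4 (1.012), DLL1 (0.937), LFNG (0.8193), HES7 (0.712), NRARP (0.4939) and TLE2 (-1.1). Between Tet-PTF1a and Tet-MIST1 it differed for HEYL (3.433), HEY1 (2.237), NOTCH1 (1.473), NOTCH3 (0.4939), NOTCH2 (0.4877), JAG1 (0.3298) and RBPJ (0.2273), and in the pathway list for DLL1 (1.592), DLL4 (1.448), LFNG (0.8665), NRARP (0.7948) and TLE2 (-0.6064).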

How the results depend on the processing

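Counts of members called were within 1.5 times the reported count except as follows. When a log2 change of 1 or more in either direction was required, 3 members were called in Tet-PTF1a, 0 in Tet-MIST1, 3 in the test of Tet-PTF1a against Tet-MIST1, 0 between Control Tet-PTF1a and Tet-One and 2 between Control Tet-MIST1 and Tet-One. With all 24 libraries in one fit, 3 members were called in Tet-PTF1a and 3 in Tet-PTF1a against Tet-MIST1. In Tet-PTF1a HEYL, HEY1 and NOTCH1 kept their calls in that fit, and RBPJ, NOTCH2, HES1 and JAG2 lost theirs. Leaving out 1 library at a time gave 6 to 8 members in Tet-PTF1a, 2 to 4 in Tet-MIST1, 0 in each fit of Tet-One, 3 to 5 for Tet-PTF1a against Tet-One, 0 to 3 for Tet-MIST1 against Tet-One, 6 to 7 for Tet-PTF1a against Tet-MIST1, 7 to 9 for Control Tet-PTF1a and 9 to 10 for Control Tet-MIST1. With the trends of exon length and GC content removed, which was chosen after seeing the data, 4 values with a call in either fit changed sign. HES4 in Tet-PTF1a against Tet-MIST1 became 0.34, and in Control Tet-PTF1a against Tet-One NOTCH2 became -0.11, JAG1 -0.12 and RBPJ -0.21. A further 4 values changed sign with no call in either fit. Of the values that kept their sign, 5 gained a call and 1 lost it. The cause was not tested.

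With a replicate block, JAG2 was called lower in Tet-PTF1a against Tet-One (-0.35, FDR 0.0144). Over all genes the block left 1463 calls in Tet-MIST1 where 2812 were reported. The deviations of libraries with the same number from their group means had r between -0.244 and 0.18. With 4 libraries in a group these values cannot decide whether such libraries were paired, and the labels give only the number. With all libraries in one fit, 3128 genes were called in Tet-PTF1a (6775 reported) and 1703 in Tet-MIST1, and with a log2 limit of 1, 501 in Tet-PTF1a. Scaling by library size gave 4392 higher and 2698 lower calls in Tet-PTF1a (3344 and 3431 reported). In the pathway list of Tet-PTF1a it gave 33 higher and 9 lower. DLL4 rests on few reads, 14 in its lowest library.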
